A study of Mus musculus with 15 samples.

Results

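The genes described here are 10 that encode cytosolic danger sensors or close relatives of them: Nlrp1a, Nlrp1b, Nlrp3, Nlrp12, Nlrc4, Mefv, Nod2, Naip5, Naip6 and Card6. They were taken by name as inflammasome or NOD sensors from among the 4567 genes in the deposited gene tables, so that all 10 are listed is no result. They are not the whole family. Of 21 other sensors, 6 are also listed, such as Naip2 and Nlrx1, and the rest, such as Aim2 and Nod1, are not. RNA was sequenced from 5 populations of sorted spleen T cells with 3 libraries each. On day 7, CD4 Flica-negative, CD8 Flica-negative and CD8 Flica-positive cells were sorted from irradiated Balb/C mice that had received C57Bl6 T cells and bone marrow and had acute graft-versus-host disease (aGvHD). Flica stains cells in which caspase-1 is active. The paper reports that most Flica-positive T cells of aGvHD mice took up a dye kept out by intact membranes, and that few or no Flica-negative cells did. Its text does not state whether such cells were left out of the sort. The controls were Flica-negative CD4 and CD8 cells of untreated C57Bl6 mice (day 0), so every control differs from the day 7 cells in transfer, irradiated host and sorting day together. All donors were of the same strain, no gene was deleted, and the mice were young adults by the study's methods. Each library came from spleen cells of several pooled mice in aGvHD and of few mice in controls, and there is no CD4 Flica-positive library because too few such cells were obtained.

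Inflammasomes are protein platforms that assemble when a sensor meets a microbial or danger signal and that activate caspase-1, which matures IL-1β and IL-18 and cuts the pore protein gasdermin D. NLRP1, NLRP3 and pyrin, the product of Mefv, each found a platform of their own, whereas NAIP proteins bind bacterial flagellin or secretion system parts and then recruit NLRC4. NOD2 senses bacterial peptidoglycan and signals through RIPK2 to NF-κB, and these sensors are known best from macrophages and neutrophils. The comparison by Flica signal asked how transcripts of donor T cells differ where caspase-1 is active.

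A normalized count is the number of reads on a gene divided by a size factor of the library. Sums on listed genes lay between 2143579 and 11046043 counts per library, which is not the depth since only selected genes were listed. The Flica-positive libraries had 7310375 to 11046043 and all others at most 3184674. Mitochondrially encoded genes took 42.8% to 51.7% of these counts in Flica-positive libraries, 15.1% to 16.5% in Flica-negative and 26.1% to 28.8% in control libraries, so this share moved with every Flica-positive difference below, and its part in them was not tested. Of 14 T cell markers only Cd8a was listed, at 18353 to 21642 normalized counts in CD8 controls, 12817 to 14967 in CD8 Flica-negative cells, 9348 to 11492 in CD8 Flica-positive cells and at most 117 in CD4 libraries, so the CD8 label was met and the CD4 label could not be checked further. Markers of other cells differed between populations. The 14 neutrophil markers summed to 60.9 to 144 in the control libraries, 2670 to 7795 in CD4 Flica-negative, 11864 to 18189 in CD8 Flica-negative and 200517 to 387729 in CD8 Flica-positive libraries. The 10 listed of 14 macrophage or monocyte markers, of which Ly6c2 and Ccr2 are also made by activated T cells, summed to 427 to 567 in CD4 controls, 6250 to 6473 in CD8 controls, 7304 to 8382 in CD4 Flica-negative, 16193 to 18511 in CD8 Flica-negative and 33016 to 60483 in CD8 Flica-positive libraries. The 8 B cell markers summed to 5974 to 9022 in controls, 35.3 to 77.7 in CD4 Flica-negative, 142 to 200 in CD8 Flica-negative and 341 to 586 in CD8 Flica-positive libraries. In these bulk libraries, fewer cells of a type and less RNA per cell cannot be told apart.

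The sensors fell into patterns. Mean levels of 7 of the 10 were highest in CD8 Flica-positive cells, and for 6 of them (Nlrp1a, Nlrp3, Nlrp12, Mefv, Naip5 and Naip6) every Flica-positive library lay above all 12 other libraries. Of all 4567 listed genes, 40.0% had their highest mean in these cells and 21.9% had every Flica-positive library above all others. Nlrc4, Nod2 and Card6 had their highest mean in a control population. The CD4 and CD8 lineages shared a loss of Nlrc4 and Card6 between control and day 7 Flica-negative cells, and differed on day 7 in Naip5 and Nod2.

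**Figure D1:**
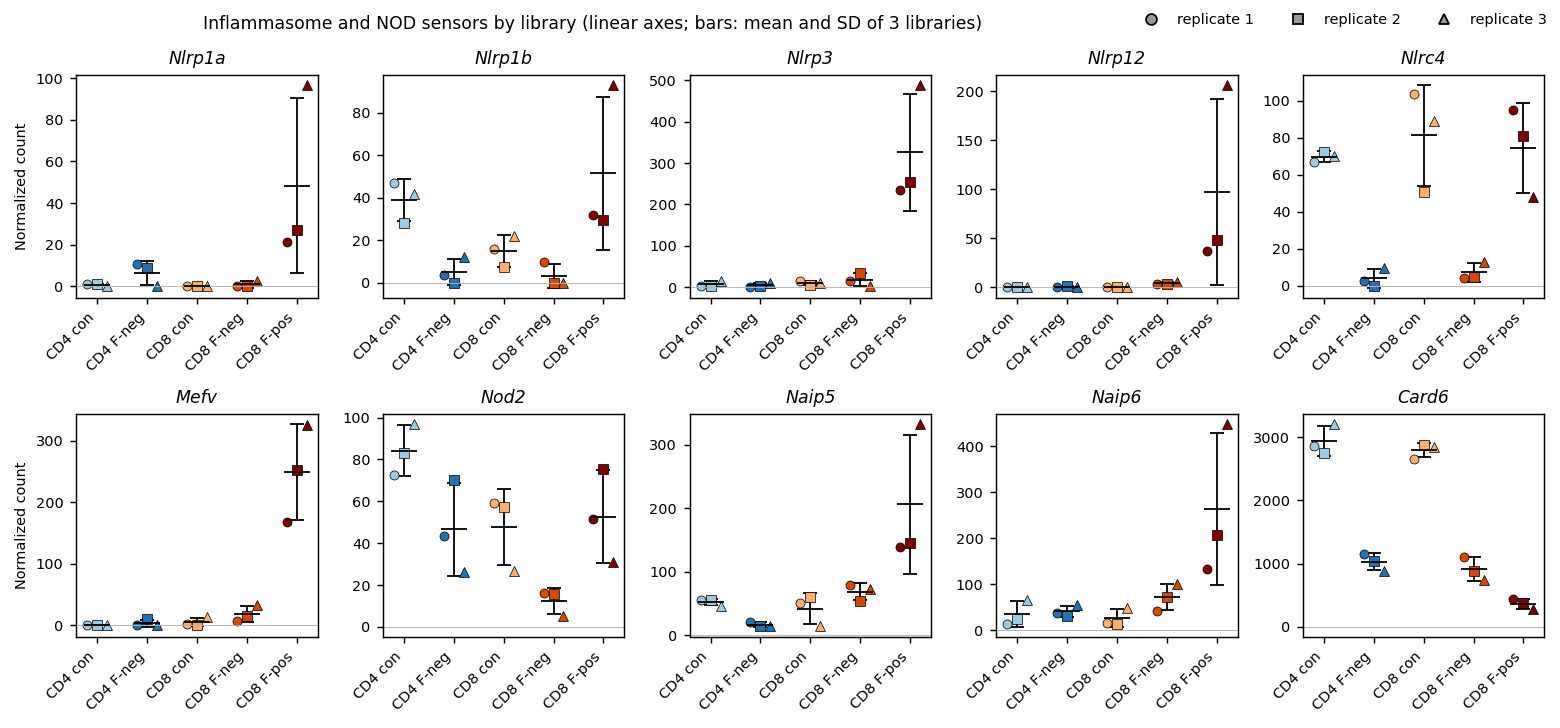
Normalized count (linear axis, a scale of its own per gene) of the 10 sensors in the 15 libraries, by population (con, control; F-neg, Flica-negative; F-pos, Flica-positive). Points are libraries with a symbol per replicate number, and bars give the mean and SD of 3 libraries. Flica-positive replicate 3 (triangle) is the highest of its group for 7 genes, and Card6 lies at 2661 to 3206 in the controls and at 282 to 435 in Flica-positive cells.

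NLRP1 senses protease activity and is encoded in the mouse by neighbouring copies. Nlrp1a lies at chr11:71092236-71144704 and Nlrp1b at chr11:71153102-71230733, both on the minus strand of GRCm38. The copies are shown because they sit side by side. Both had their highest mean in Flica-positive cells, and they differed in controls, where Nlrp1b had reads and Nlrp1a had few or none. RefSeq promoter windows of GRCm38.p6 (250 bases before to 50 after a start) were found for 9 of the 10 genes, with 2 windows each for Nlrp1b and Nlrp3, and none for Card6. Over the 250 bases before the start, the Nlrp1a window and the outer Nlrp1b window were identical at 219 aligned positions (87.6%). The 120 bases just before the start follow for each, read 5′ to 3′ on the minus strand, at chr11:71144705-71144824 for Nlrp1a and chr11:71230734-71230853 for Nlrp1b, and capitals mark GAGGAA, the core of sites of the myeloid and B cell factor PU.1.
Nlrp1a: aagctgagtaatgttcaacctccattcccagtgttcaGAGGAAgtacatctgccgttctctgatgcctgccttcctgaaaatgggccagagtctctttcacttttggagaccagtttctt
Nlrp1b: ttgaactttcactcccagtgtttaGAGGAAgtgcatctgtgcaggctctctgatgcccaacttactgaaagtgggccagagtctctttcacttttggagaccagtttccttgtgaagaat
On either strand GAGGAA was in 3 of the 11 windows of the sensors (Nlrp1a, outer Nlrp1b and 1 of Nlrp3), against 28.3% of all 32851 windows in the table. These are matches of letters in a window and not sites.

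Nlrp1a was highest in Flica-positive cells and had few or no reads elsewhere. Its normalized counts were 21.1, 27.1 and 96.9 in the 3 CD8 Flica-positive libraries, and 0, 0 and 2.59 in CD8 Flica-negative ones. CD8 controls had no read on it, CD4 controls had 1.12, 0.967 and 0, and CD4 Flica-negative cells 10.6, 8.93 and 0. The Flica-positive libraries lay above all others, with replicate 3 far above the other two. With 3 counts per library as the floor below which no fold is formed, Nlrp1a was at least 16.9-fold higher in the Flica-positive libraries than in CD8 Flica-negative cells (edgeR adjusted p = 0.015) and at least 17.7-fold higher than in CD8 controls (edgeR adjusted p = 0.0044). Without Flica-positive replicate 3 the bounds were 8.42-fold and 8.80-fold and the first call was lost (edgeR adjusted p = 0.052), and it was lost too without Flica-negative replicate 1 (0.052) or 2 (0.066).

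Nlrp1b, in contrast, was present in controls. It had 46.9, 28.0 and 41.8 normalized counts in CD4 controls and 15.9, 7.16 and 22.1 in CD8 controls. It had 3.53, 0 and 12.01 in CD4 Flica-negative cells and 9.59, 0 and 0 in CD8 Flica-negative cells, then 31.7, 29.4 and 93.3 in Flica-positive cells. Every CD4 control library lay above every CD4 Flica-negative one, a log2 fold change of -2.84 ± 1.04 (SE; edgeR adjusted p = 0.033) that lost its call without CD4 control replicate 1 (0.093) and without CD4 Flica-negative replicate 1 (0.086), and in the fit of all 15 libraries (0.073). Between the CD8 cells with and without Flica signal the log2 difference was 3.999 ± 1.46 (edgeR adjusted p = 0.066), and the groups did not overlap. It passed without Flica-negative replicate 1 (0.0076), the only library of its group with reads, and with DESeq2 (0.015). It also passed in the edgeR fit of all 15 libraries (0.043) and with the replicate block (0.036), and in no other alternative. Without that library the fall from CD8 control to Flica-negative cells also passed (0.014, against 0.20 with it). CD4 controls had a mean of 38.9 ± 9.75 (SD, n = 3) and CD8 controls 15.05 ± 7.51, a log2 difference of 1.37 ± 0.79 that did not pass (edgeR adjusted p = 0.35). In CD4 cells the B cell marker sums, like Nlrp1b, were lower in Flica-negative libraries (35.3 to 77.7) than in controls (6272 to 8323). CD8 controls had B cell sums of 5974 to 9022, but their Nlrp1b overlapped with that of CD8 Flica-negative cells. The part of B cells in Nlrp1b was not tested.

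NLRP3 responds to potassium loss, crystals and mitochondrial damage and is encoded at chr11:59541568-59566956 (plus strand). Nlrp3 had 236, 254 and 489 normalized counts in Flica-positive libraries and 14.9, 34.5 and 3.45 in Flica-negative CD8 ones. In CD8 controls it had 14.98, 6.27 and 9.62. In CD4 controls it had 3.35, 2.90 and 16.0, and in CD4 Flica-negative cells 0, 3.35 and 10.4. The Flica-positive libraries stood apart from the other populations, whose values overlapped one another. The log2 fold change was 4.20 ± 0.69 against Flica-negative CD8 cells (edgeR adjusted p = 0.00054) and 4.97 ± 0.62 against CD8 controls (edgeR adjusted p = 0.00016). Nlrp3 did not pass in Flica-negative cells against control in either lineage, with log2 differences of 0.77 ± 0.98 for CD8 (edgeR adjusted p = 0.49) and -0.68 ± 1.55 for CD4 (0.73).

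NLRP12 is known mainly as a brake on NF-κB signalling in myeloid cells. Its gene, at chr7:3218784-3249740 (minus strand), had 37.5, 48.3 and 207 normalized counts in Flica-positive libraries and 3.20, 3.73 and 5.18 in Flica-negative CD8 libraries. No control library of either lineage had a read on Nlrp12, and the CD4 Flica-negative libraries had 0, 1.12 and 0. Against CD8 Flica-negative cells the log2 fold change was 4.54 ± 0.93 (edgeR adjusted p = 0.0030), and Flica-positive cells were at least 35.6-fold above CD8 controls (edgeR adjusted p = 0.0022), or at least 15.7-fold without replicate 3. For CD8 Flica-negative cells against CD8 controls the bound was only 1.47-fold. That call (edgeR adjusted p = 0.040) was lost without any 1 of the 6 libraries, with adjusted p from 0.0658 to 0.0999, so it rests on very few reads.

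Pyrin senses the inactivation of RhoA. Mefv, at chr16:3707218-3718097 (minus strand), had 169, 253 and 325 normalized counts in the Flica-positive libraries. It had 7.46, 15.9 and 32.8 in CD8 Flica-negative cells, 2.64, 0 and 13.5 in CD8 controls, and no read in CD4 controls. In CD4 Flica-negative cells only replicate 2 had reads, 10.0 normalized counts. Mefv rose by 3.71 ± 0.59 on the log2 scale from Flica-negative to Flica-positive CD8 cells (edgeR adjusted p = 0.00046) and was 5.52 ± 1.12 above CD8 controls (edgeR adjusted p = 0.0027). Neither Flica-negative population passed against its control, and the CD8 libraries of these groups overlapped. Without CD8 control replicate 3 the rise in CD8 cells passed (3.71, edgeR adjusted p = 0.037, against 1.79 ± 1.27 and 0.23 with it). Between CD4 and CD8 Flica-negative cells Mefv passed without CD4 Flica-negative replicate 2 (0.017), the only CD4 library with reads on it, and not with it (0.21).

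**Figure D2:**
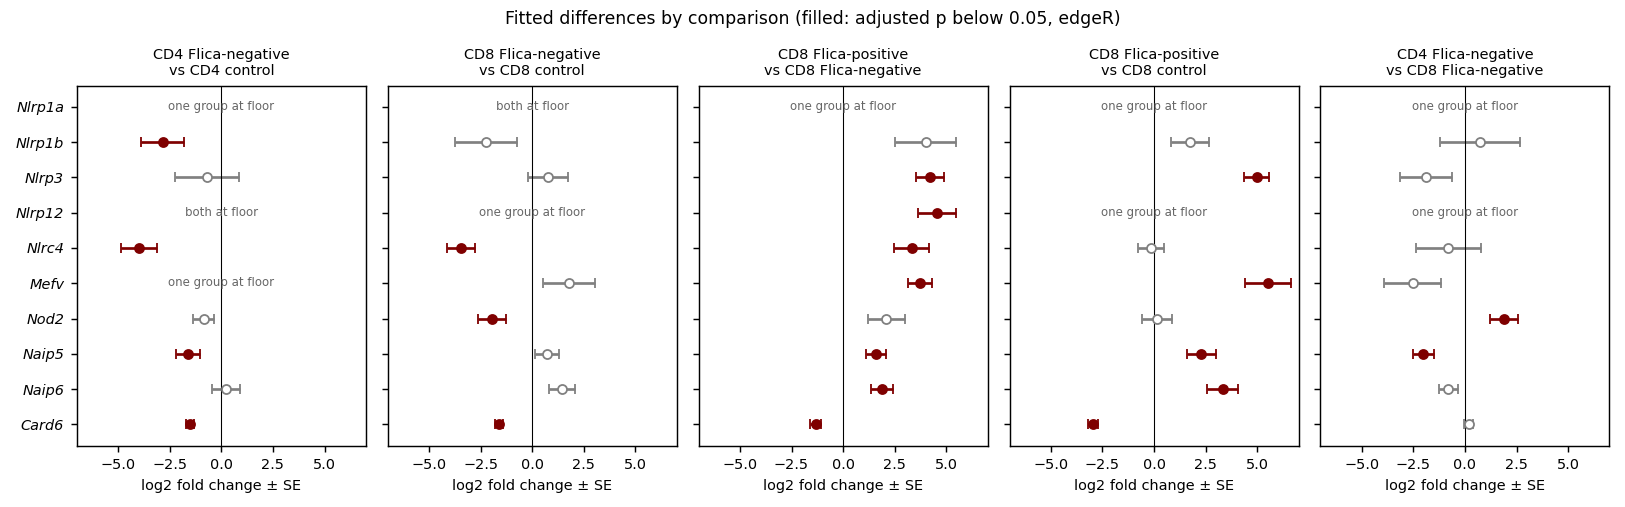
Fitted log2 fold change (x axis) with its SE for each sensor in 5 comparisons, from edgeR on the 6 libraries compared; filled points have an adjusted p below 0.05, and genes with a group at the floor (no library above 3 counts) carry a note in place of a value. Card6 and Nlrc4 lie left of 0 in both lineages between Flica-negative and control cells, and Nlrp3 and Mefv lie right of 0 in both Flica-positive comparisons.

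In CD8 Flica-positive cells against CD8 Flica-negative cells, 7 of the 10 sensors were higher and 1, Card6, was lower, where 21.1% of the 4478 listed genes tested were called higher and 2.72% lower (946 and 122 genes; 738 and 458 with TMM scaling, which takes most listed genes as not changed). With TMM 5 sensors were called higher and 1 lower, Naip5 and Naip6 being lost. All 10 had groups that did not overlap, 9 higher and 1 lower, as did 30.5% and 13.7% of the listed genes. The median log2 fold change over the 9 sensors with no group at the floor was 3.32, against 0.41 over the listed genes. Without Flica-positive replicate 3, 5 were called higher and 1 lower, and without Flica-negative replicate 2, 3 and 1. DESeq2 called 9 higher and 1 lower. Against CD8 controls, 6 were higher and 1 was lower in Flica-positive cells, where 46.8% and 23.9% of 4564 listed genes were called (2138 and 1093 genes; 1232 and 1610 with TMM scaling). With TMM 4 sensors were called higher and 2 lower, Naip5 and Naip6 being lost and Nlrc4 called lower. Without overlap, 7 sensors were above and 1 was below the CD8 controls, as were 48.2% and 31.2% of the listed genes. These values moved with the neutrophil and macrophage markers given above, which were highest in the Flica-positive libraries. Flica-positive replicate 3 had the highest value of 7 of the 10 sensors and the lowest of the other 3. It also had the highest neutrophil sum (387729, against 200517 and 357705). The macrophage or monocyte sum, however, was highest in Flica-positive replicate 2 (60483, against 33016 in replicate 1 and 57087 in replicate 3). The part of such cells in the sensor levels was not tested. The genes were listed because they differed in these libraries, so the p-values are not independent evidence of that. The authors listed 6 of the sensors (Nlrp1a, Nlrp1b, Nlrp3, Nlrp12, Nlrc4 and Nod2), among 972 genes, for a difference past 2 log2 units between these same CD8 cells. Against CD8 controls they listed 7 sensors among 3461 genes. The sensor counts and the median above were thus partly set by that selection.

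**Figure D3:**
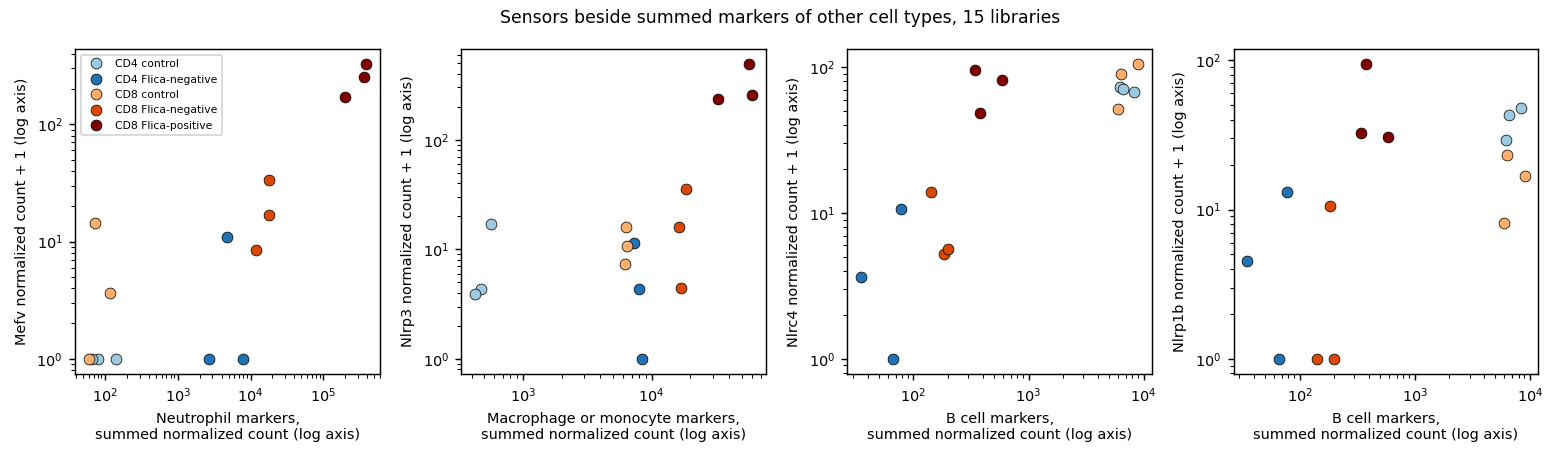
Normalized count plus 1 of 4 sensors (y, log axis) against the summed normalized count of a marker list of another cell type (x, log axis) in the 15 libraries, coloured by population. Mefv and Nlrp3 are highest in the 3 Flica-positive libraries, which also have the highest neutrophil and macrophage sums. Nlrc4 is high in controls, where B cell sums are 5974 to 9022, and Nlrp1b in the CD4 controls. Both are also high in Flica-positive libraries, where B cell sums are 341 to 586.

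NLRC4 is the platform to which the NAIP receptors pass their signal, and Nlrc4 (chr17:74425438-74459142, minus strand) overlaps another annotated gene, CT033749.1, whose reads can be told apart only where counting used the strand. Nlrc4 had 67.0, 72.5 and 70.3 normalized counts in CD4 controls and 104, 51.0 and 89.4 in CD8 controls. It had 2.64, 0 and 9.61 in CD4 Flica-negative and 4.26, 4.67 and 12.9 in CD8 Flica-negative libraries. Flica-positive libraries had 95.0, 81.2 and 47.8, within the range of the CD8 controls apart from replicate 3. The control and Flica-negative libraries did not overlap in either lineage. Nlrc4 was lower by a log2 fold change of -3.99 ± 0.89 in CD4 (edgeR adjusted p = 0.0021) and -3.44 ± 0.66 in CD8 Flica-negative cells (edgeR adjusted p = 0.0010), and the difference of these responses, -0.55 ± 1.09, did not pass (edgeR adjusted p = 0.84).

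Flica-positive CD8 cells had 3.32 ± 0.85 more Nlrc4 on the log2 scale than Flica-negative ones (edgeR adjusted p = 0.013; 0.061 without Flica-negative replicate 2). Against CD8 controls the log2 difference of -0.13 ± 0.63 did not pass (edgeR adjusted p = 0.86), but with TMM scaling it was -1.72 and passed (0.045). The B cell sums, like Nlrc4, were higher in controls than in Flica-negative cells, whereas in Flica-positive cells Nlrc4 was at control level with B cell sums of only 341 to 586. The part of B cells in the control values was not tested.

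The NAIP receptors for flagellin are encoded by Naip5 (chr13:100211739-100246323) and Naip6 (chr13:100281121-100317674), neighbours on the minus strand. Of all 150-base windows in the GENCODE M21 transcripts of Naip5, 8.25% occur letter for letter in another gene (5.84% in Naip3), and of those of Naip6 1.89% do, nearly all in Naip5, so the split of reads between the copies is uncertain to that extent. For Card6 7.33% are shared with Gm16077, and for the other 7 sensors none are.

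Naip5 told the lineages apart on day 7. It had 55.8, 55.1 and 46.3 normalized counts in CD4 controls and 21.2, 14.5 and 15.2 in CD4 Flica-negative cells. In CD8 cells it had 51.1, 60.0 and 14.4 in controls, 79.9, 54.1 and 72.5 in Flica-negative and 139.5, 146 and 332 in Flica-positive libraries. Every CD4 Flica-negative library thus lay below every CD8 Flica-negative one. Naip5 was lower in CD4 than in CD8 Flica-negative cells by a log2 difference of -2.01 ± 0.52 (edgeR adjusted p = 0.0080), a call kept under all 11 alternatives. From control to Flica-negative it fell in CD4 cells (-1.62 ± 0.59, edgeR adjusted p = 0.033) and did not pass in CD8 cells (0.71 ± 0.58, 0.29). The difference of the responses was -2.33 ± 0.83 and did not pass over the listed genes (edgeR unadjusted p = 0.012, adjusted p = 0.086), but passed with DESeq2 (adjusted p = 0.017). The CD4 call was lost without CD4 control replicate 1 (0.093) or 2 (0.092) and without CD4 Flica-negative replicate 2 (0.062) or 3 (0.070). Macrophage or monocyte, neutrophil, dendritic cell and B cell marker sums were also lower in CD4 than in CD8 Flica-negative cells. Neutrophil sums were 2670 to 7795 against 11864 to 18189, and dendritic cell sums 839 to 1504 against 6882 to 9805. B cell sums were 35.3 to 77.7 against 142 to 200. In CD4 cells the macrophage or monocyte sums were higher in Flica-negative libraries (7304 to 8382) than in controls (427 to 567), while Naip5 was lower. That list holds Ly6c2 and Ccr2, which activated T cells also make, so its sums do not measure macrophages alone. Neutrophil and dendritic cell sums were also higher in CD4 Flica-negative libraries than in CD4 controls, and B cell sums were lower. CD8 controls had macrophage or monocyte sums of 6250 to 6473, and their Naip5 overlapped with that of CD4 controls. The part of any of these cells in Naip5 was not tested.

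Naip6 varied more between libraries. It had 13.4, 25.1 and 65.8 normalized counts in CD4 controls and 37.9, 31.3 and 53.7 in CD4 Flica-negative cells. It had 15.9, 14.3 and 48.1 in CD8 controls, 42.6, 71.85 and 100.1 in CD8 Flica-negative and 134, 207 and 448 in Flica-positive libraries. The Flica-positive libraries were above all others and the remaining populations overlapped. From CD8 Flica-negative to Flica-positive libraries the log2 fold change was 1.87 ± 0.52 for Naip6 (edgeR adjusted p = 0.020) and 1.58 ± 0.48 for Naip5 (0.031). Without Flica-positive replicate 3 these were 1.25 (0.095) and 1.05 (0.12), without Flica-negative replicate 1 1.61 (0.069) and 1.70 (0.058), and without replicate 2 1.88 (0.081) and 1.43 (0.13). Naip5 also lost its call without Flica-negative replicate 3 (0.070). Both calls were lost with TMM scaling, at 1.29 for Naip6 (0.058) and 0.95 for Naip5 (0.16), and in the fit of all 15 libraries (0.051 and 0.057). From CD8 control to Flica-negative cells Naip6 had a log2 difference of 1.46 ± 0.63 that did not pass (edgeR adjusted p = 0.062). It passed without CD8 control replicate 3 (2.24, 0.0091) or Flica-negative replicate 1 (1.72, 0.049), and with DESeq2 (adjusted p = 0.048). Against CD8 controls Naip6 rose by 3.33 ± 0.74 (edgeR adjusted p = 0.0044) and Naip5 by 2.29 ± 0.70 (0.019) on the log2 scale. With TMM scaling neither passed, at 1.58 for Naip6 (adjusted p = 0.077) and 0.53 for Naip5 (0.51).

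Nod2 (chr8:88647315-88688474, plus strand) was highest in CD4 controls, at 72.6, 83.2 and 96.9 normalized counts. It had 43.2, 70.3 and 26.4 in CD4 Flica-negative cells, 59.0, 57.3 and 26.9 in CD8 controls, 16.0, 15.9 and 5.18 in CD8 Flica-negative and 51.6, 75.3 and 31.1 in Flica-positive libraries. The CD8 Flica-negative libraries were the lowest and overlapped with no other population. Nod2 was lower there than in CD8 controls by a log2 fold change of -1.95 ± 0.69 (edgeR adjusted p = 0.028), and higher in CD4 than in CD8 Flica-negative cells by 1.91 ± 0.68 (edgeR adjusted p = 0.049).

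The Nod2 calls were fragile. The CD8 call was lost without CD8 control replicate 1 (0.080) or 2 (0.079) and without Flica-negative replicate 3 (0.081). The day 7 call between lineages was lost without any library but CD4 Flica-negative replicate 3, with edgeR adjusted p from 0.051 to 0.23. In CD4 cells the log2 difference from control to Flica-negative, -0.86 ± 0.49, did not pass (edgeR adjusted p = 0.15) although the groups did not overlap. The Flica-positive against Flica-negative difference of 2.09 ± 0.89 did not pass either (edgeR adjusted p = 0.11). It passed without Flica-positive replicate 3 (2.36, 0.045), with DESeq2 (0.044) and in the edgeR fit of all 15 libraries (0.042).

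Card6 encodes a CARD protein without a ligand-sensing part of the NLR type and is a modulator of NF-κB signalling. It lies at chr15:5095981-5108539 (minus strand). Among the genes described here it was by far the most abundant in control cells, at 2864, 2746 and 3206 normalized counts in CD4 controls and 2661, 2868 and 2848 in CD8 controls. It had 1152, 1044 and 887 in CD4 Flica-negative, 1108, 884 and 734 in CD8 Flica-negative and 435, 376 and 282 in Flica-positive libraries. The steps from control to Flica-negative to Flica-positive did not overlap. Card6 fell by 1.52 on the log2 scale (SE 0.18, edgeR adjusted p = 1.0e-05) in CD4 and by 1.62 (SE 0.20, adjusted p = 4.2e-05) in CD8 cells between control and Flica-negative, and by a further 1.32 (SE 0.27, adjusted p = 0.0028) from CD8 Flica-negative to Flica-positive libraries. The CD4 and CD8 responses differed by 0.10 ± 0.26 (edgeR adjusted p = 0.89), and the lineages by 0.18 ± 0.21 on day 7 (0.58) and 0.07 ± 0.15 in controls (0.86). The calls for Card6 were kept under every alternative run, including all left-out libraries.

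Per kilobase of merged exon, Card6 led the 10 genes in 4 populations, with 482 ± 39.2 normalized counts per kilobase (SD, n = 3) in CD4 controls and 458 ± 18.7 in CD8 controls, and all other sensors were at 17.0 or less there. In Flica-negative cells Card6 per kilobase was 168 ± 21.8 in CD4 and 149 ± 30.9 in CD8 libraries, followed by Nod2 in CD4 (9.30 ± 4.42) and Naip5 in CD8 cells (13.2 ± 2.55). In Flica-positive cells the order was Nlrp3 (80.4 ± 34.8), Mefv (76.6 ± 24.1) and Card6 (59.7 ± 12.6), whose spreads overlap, then Naip5 (39.6 ± 21.1) and Naip6 (38.5 ± 24.1), which do not differ beyond their spread either. The lowest level in Flica-positive cells was that of Nlrp1b, at 8.16 ± 5.75.

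Over both lineages, 4 sensors were lower and none higher in CD4 Flica-negative cells against control (Nlrp1b, Nlrc4, Naip5 and Card6), where 26.8% of 4517 listed genes were called lower and 31.6% higher. No further sensor had an unadjusted p below 0.05 by edgeR there, and DESeq2 also called 4 lower and none higher. Without overlap, 5 were lower (31.8% of the listed genes) and none higher (35.4%). In CD8 Flica-negative cells 3 were lower (Nlrc4, Nod2 and Card6) and Nlrp12 was higher, where 29.1% and 37.6% of 4556 were called, and the same 3 and 1 did not overlap (32.5% lower and 40.8% higher over the listed genes). Naip6 also had an unadjusted p below 0.05 by edgeR there (0.043). DESeq2 called the same 3 lower and, as higher, Naip6 in place of Nlrp12, which it gave no adjusted p. The median over sensors with no group at the floor was -1.52 (7 genes) in CD4 and -0.45 (8 genes) in CD8 cells, against 0.14 and 0.69 over the listed genes. By the interaction term of the 4 groups, edgeR called no sensor differently between the lineages at an adjusted p below 0.05 (5.65% of 4567 listed genes were called higher and 4.60% lower), while 1 of 10, Naip5, had an unadjusted p below 0.05, and DESeq2 called Naip5. Directly compared on day 7, Nod2 was higher and Naip5 lower in CD4 than in CD8 Flica-negative cells, where 9.99% of 4483 listed genes were called higher and 12.7% lower. Without overlap, 1 sensor was higher (17.8% of the listed genes) and 2, Naip5 and Nlrp12, were lower (19.9%). In controls no sensor was called between CD4 and CD8 cells (7.01% of 4322 listed genes were called higher and 5.81% lower) by edgeR or DESeq2, none had an unadjusted p below 0.05 by edgeR, and Nlrp1b and Nod2 did not overlap, both higher in CD4, as were 14.9% of the listed genes (12.3% were lower without overlap). The 3 comparisons of CD8 populations share libraries in pairs.

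Other genes of the pathway were read from lists by role, and 22 of 60 list genes are in the tables. Pycard, which encodes the adaptor ASC, and Gsdmd are not among them, and Casp1 is. Casp1, which encodes the caspase that Flica binds, had a mean of 43.2 ± 17.5 normalized counts in CD8 controls, 486 ± 30.5 in CD8 Flica-negative and 683 ± 98.6 in CD8 Flica-positive libraries. It had 89.3 ± 18.1 in CD4 controls and 965 ± 123.5 in CD4 Flica-negative cells. It rose by 3.48 ± 0.38 in CD8 and 3.43 ± 0.25 in CD4 cells on the log2 scale from control to Flica-negative (edgeR adjusted p = 2.0e-05 and 2.0e-07), and the step of 0.49 ± 0.24 to Flica-positive cells did not pass (0.15). Casp1 thus rose in the Flica-negative cells of both lineages, in which Nlrc4 and Card6 fell.

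From CD8 Flica-negative to Flica-positive libraries 16 of the 22 rose and none fell (edgeR), where 21.1% of the 4478 listed genes were called higher and 2.72% lower. The 22 were listed because they differed between some of these populations, so such counts are partly set by that selection. All 6 other sensors listed were higher, led by Ifi207, a member of the DNA-sensing IFI200 family (3.51 ± 0.60 on the log2 scale), Ciita, the regulator of MHC class II genes (2.83 ± 0.45), Ifi204 (2.64 ± 0.34) and Ifi205 (1.39 ± 0.29). Of the 7 listed genes for adaptors, kinases and receptors 6 were higher, led by the LPS co-receptor gene Cd14 (4.82 ± 0.44), Pstpip2 (4.46 ± 0.43), the LPS receptor gene Tlr4 (4.11 ± 0.69) and Card9 (3.95 ± 0.40). Of 4 cytokine genes 3 were higher, Il1rn (5.95 ± 0.97), which encodes the IL-1 receptor antagonist, Il36g (4.49 ± 0.67) and Il1b (4.43 ± 0.40). Of 5 caspase genes only Casp12 was called, with a single read in 1 Flica-negative library and a mean of 38.1 ± 47.8 in Flica-positive ones. Cd14 and the other myeloid genes among these moved with the neutrophil and macrophage sums, and the part of such cells was not tested.

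Between control and Flica-negative cells 10 of the 22 were higher and 3 lower in CD8, and 9 higher and 4 lower in CD4 cells (edgeR). Over all listed genes 37.6% were called higher and 29.1% lower in CD8, and 31.6% higher and 26.8% lower in CD4 cells. Casp4, the sensor of cytosolic LPS, rose by 4.60 ± 0.80 on the log2 scale in CD8 and 4.31 ± 0.38 in CD4 cells, beside Casp1 as above. Among other sensors Ifi204 rose by 2.72 ± 0.71 in CD8 and 7.08 ± 0.34 in CD4, Nlrx1, a mitochondrial NLR, by 2.21 ± 0.34 and 1.54 ± 0.25, and Naip2 by 1.52 ± 0.30 and 1.41 ± 0.34. Ciita fell in both, with log2 fold changes of -3.78 ± 0.38 and -4.98 ± 0.37. In the list of adaptors, kinases and receptors Card10 rose by 4.11 ± 0.56 in CD8 and 5.22 ± 0.72 in CD4 cells and the co-receptor gene Cd14 by 2.99 ± 0.78 and 4.28 ± 1.30. The receptor gene Tlr2 had log2 fold changes of -1.42 ± 0.40 and -2.80 ± 0.68, the kinase gene Lrrk2 -2.21 ± 0.33 in CD8, and Card9 -2.82 ± 0.56 in CD4. The interaction term was called for Ifi204, with a larger rise in CD4 cells (4.35 ± 0.72, edgeR adjusted p = 0.00058). On day 7 CD4 Flica-negative cells had more Ifi204 (3.41 ± 0.27), Casp4 (1.39 ± 0.24) and Casp1 (0.99 ± 0.21) and less Pstpip2 (-2.83 ± 0.95) and Tlr2 (-2.31 ± 0.62) than CD8 Flica-negative cells.

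The genes whose pattern was most like a sensor's over the 15 libraries, by Pearson correlation of log2(normalized count + 1), are a description, since the libraries fall into 5 populations. Nlrc4 was nearest to Ciita (r = 0.96), Gm6377 (0.94) and Cd74 (0.93), the gene of the MHC class II invariant chain. Cd74 had means of 7139 in CD4 controls, 7008 in CD8 controls, 402 in CD4 Flica-negative, 714 in CD8 Flica-negative and 6769 in CD8 Flica-positive libraries. Nlrp12 was nearest to Tcp11x2 (0.98), Cybb (0.97), the gene of the phagocyte oxidase, and Pknox2 (0.97). Nlrp3 was nearest to Plbd1 (0.95), the receptor gene Csf2ra (0.94) and Sirpb1b (0.93), and Mefv to Foxd4, Ceacam10 (both 0.94) and the kinase gene Fgr (0.93). Naip5 was nearest to Lyn (0.91), Plcg2 (0.90) and Tbc1d9 (0.90), Naip6 to Slc31a1 (0.94), Emilin2 and Pla2g7 (both 0.92), and Nlrp1a to Slc22a4 (0.96), Lrp4 (0.92) and Osm (0.91). Nlrp1b was nearest to Dnah10 (0.93), Fgd2 (0.90) and the immunoglobulin segment Ighv8-8 (0.88), and Nod2 to Cd81 (0.88), Cyp4f16 (0.86) and Smo (0.84). Card6 was nearest to Ifi208, Lef1os1 and Irf2bpl (all 0.99). With ranks, or without the Flica-positive libraries, 0 to 2 of each 3 stayed among the nearest.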

How the data were processed

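RNA of 15 pools of sorted mouse T cells (5 populations, 3 libraries each) was captured with oligo-dT and sequenced in pairs. Per the submitters' processing notes, STAR 2.7.1a, DESeq2 and GRCm38 were used; the counting tool and annotation are not given in the sources used here. The authors deposited raw counts per gene in 4 tables, each limited to genes past an adjusted p of 0.05 and 2 log2 units in either direction. The mean signal per gene, as deposited, is the mean of counts over size factors. The authors' log2 fold change, Wald score, p-value and adjusted p columns, and the deposited enrichment tables, were not used.

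Size factors were solved from the deposited means. Groups were compared with edgeR 4.0.16 (quasi-likelihood, limma 3.58.1, R 4.3.3) on the libraries compared, without a replicate block, with Benjamini-Hochberg adjustment over all listed genes with a read and an adjusted p below 0.05 as a call. A gene with no library above 3 counts in a group was at the floor there; folds against it are lower bounds that cover counting error only. Replicates are labelled biological; p-values measure the spread between these pools. The named genes are all 10 sensors, up to 4 called genes per role list with the largest change, Casp1, Pycard and Gsdmd (some genes this rule names are not reported here), and the 3 genes most like each sensor with a mean of at least 30 in a population, among genes with a mean of at least 10. The members and lists were chosen with earlier results of these data known. Dendritic cell (3 of 7 listed) and erythroid (4 of 6) marker lists were also read: dendritic sums were 38.2 to 171 in controls, 839 to 1504 in CD4 Flica-negative, 6882 to 9805 in CD8 Flica-negative and 5053 to 6504 in Flica-positive libraries, and erythroid sums 268 to 9128 outside Flica-positive cells and 1343 to 110207 within. Tested on simulated data for the CD8 comparison by Flica signal (4451 genes, 198 changed 4-fold), edgeR called 64 changed and 6 unchanged genes. Among 95 of the former whose mean reached 50, it called 58. Alternatives were a fit of all libraries, DESeq2 1.42.0, TMM scaling, a minimum mean of 10, a replicate block and leaving out each library. Positions and transcripts are from GENCODE M21, promoters from RefSeq. Python 3.11.15, pandas 2.3.3 and matplotlib 3.10.9 were used for tables and plots.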

Additional observations from a re-analysis of the deposited data

How the results depend on the processing

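Of the 25 sensor calls, 14 held under every alternative run for them and none changed direction: Nlrp3, Nlrp12, Mefv and Card6 between the CD8 cells with and without Flica signal, Nlrp1a, Nlrp3, Nlrp12, Mefv and Card6 between Flica-positive cells and controls, Nlrc4 and Card6 in both lineages between Flica-negative cells and controls, and Naip5 between CD4 and CD8 Flica-negative cells. Several of these genes had been listed by the authors for the same comparison of the same libraries. These were Nlrp3 and Nlrp12 by Flica signal, all those named between Flica-positive cells and controls, and Nlrc4 in both lineages. That their calls held was thus partly set by that selection. Depth cannot be read from tables of selected genes, and calls at means under about 10 normalized counts rest on few reads.

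With TMM scaling the median log2 fold change over listed genes moved from 0.41 to -0.14 for CD8 Flica-positive against CD8 Flica-negative cells, from 2.04 to 0.39 against CD8 controls and from 0.69 to 0.25 for Flica-negative cells against CD8 controls, and the calls split into 738 higher and 458 lower (946 and 122 as reported) and 1232 and 1610 (2138 and 1093) in the first 2 of these. TMM left 287 genes called in the interaction (468 as reported) and DESeq2 711, with 1 sensor, Naip5. In the fit of all 15 libraries 640 genes (1017 as reported) and 1 sensor (2) were called between CD4 and CD8 Flica-negative cells, Nod2 being lost (adjusted p = 0.084). The cause was not tested.

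Deviations of same-numbered libraries from their group means correlated at 0.0392 to 0.128 for the CD8 cells with and without Flica signal over 3821 genes whose mean reached 10 (0.0722 to 0.24 over 1673 whose mean reached 100), so the numbers were not taken to pair them. The highest crossed correlation was 0.0429 and 0.0152, which leaves the pairing as a hint from the data. For CD4 and CD8 Flica-negative cells, same-numbered libraries correlated at 0.00344 to 0.341 over the 1673 genes, and crossed ones at 0.0707 at most. Erythroid sums were lowest in replicate 3 of every population. The paper describes sorting stained spleen cells of aGvHD mice into these groups, so same-numbered libraries may share mice. Without a block the tests treat them as independent. With the replicate block 2106 genes were called between Flica-positive cells and CD8 controls (3231 without it), 2 sensors between CD8 Flica-negative cells and controls (4), Nlrp12 and Nod2 being lost, and Naip5 was lost in CD4 cells against control (adjusted p = 0.12) and in Flica-positive cells against CD8 controls (0.083), while Nlrp1b gained a call between the CD8 cells with and without Flica signal (0.036).

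With 1 library left out, genes called ranged from 705 (without Flica-negative replicate 2) to 1021 for CD8 Flica-positive against CD8 Flica-negative cells and sensors from 4 to 8; sensors called ranged from 2 to 5 for CD8 and 2 to 4 for CD4 Flica-negative cells against control and from 1 to 2 between the lineages on day 7. Sign changes were confined to results that were not called. With TMM, Nod2 was -1.47 in Flica-positive cells against CD8 controls. With 1 library left out, log2 differences against CD8 controls ranged from -0.21 (without Flica-positive replicate 2, and below 0 also without CD8 control replicate 3) to 0.41 for Nod2 and from -0.37 to 0.11 (without Flica-positive replicate 3, and above 0 also without CD8 control replicate 1) for Nlrc4 in Flica-positive cells, and from -0.17 (without Flica-negative replicate 2) to 1.26 for Nlrp3 in Flica-negative cells. Against CD4 controls Nlrp3 ranged from -2.12 to 0.55 (without control replicate 3) and Naip6 from -0.15 (without control replicate 1, and below 0 also without Flica-negative replicate 3) to 1.08 in Flica-negative cells. Between lineages Nlrp1b ranged from -0.75 (without CD4 replicate 3) to 5.56 on day 7, and in controls Naip6 from -0.43 (without CD4 replicate 3) to 1.20 and Naip5 from -0.085 (without CD8 replicate 3) to 0.67. The difference of the responses ranged from -2.06 to 4.18 (without CD8 Flica-negative replicate 1) for Nlrp1b, and from -2.06 to 0.16 for Nlrc4 and -0.028 to 0.27 for Card6, whose signs changed without CD8 Flica-negative replicate 3.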
